A study of Rattus norvegicus with 4 samples.

Results

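Skeletal muscle of rats after ischemia combined with exercise was compared with skeletal muscle of sham rats, with 1 array in each group. Signals below the median of all values of the 4 arrays in the series, 30.1, were set to that floor. The log2 ratio of the floored signals, the ischemia + exercise array over the sham array, was taken for each of 10092 genes above the floor on at least 1 of the 4 arrays. A total of 45 genes reached 2-fold, or 0.446% of the genes compared: 26 were higher on the ischemia + exercise array (0.258%) and 19 were lower (0.188%). These 45 genes were chosen by the ratio itself, so their ratios are a description. With 1 array a group, nothing measures the spread between animals, and the differences were not tested.

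All 4 arrays carried total RNA from muscle of F344/DuCrlCrlj rats, an inbred strain. They were titled ischemia + exercise, ischemia + ES, ischemia and sham. The series addressed a rat model of intermittent claudication, leg pain on walking from narrowed arteries, and asked what exercise and nerve-mediated electrical stimulation (ES) do to gene expression in ischemic muscle. The ischemia + exercise array therefore differed from the sham array in both the ischemia and the exercise, and the contributions of these cannot be told apart with this pair. The ischemia array and the ischemia + ES array are given beside it for that reason. The comparisons of each of these 3 arrays with sham share the sham array, so their values are set side by side and no overlap between them was computed. Which hindlimb muscle was taken, how many rats stood behind an array, whether RNA was pooled, the ages, and the kind, length and timing of the exercise and of the ischemia are not stated in the labels.

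Contracting muscle is known to switch on immediate early genes within minutes, among them transcription factors of the FOS, EGR and NR4A families. In the hours after a bout it raises genes of fuel selection such as Pdk4, whose product blocks pyruvate dehydrogenase and so spares glucose. Ischemia in turn is known to bring fibre damage, entry of macrophages, regrowth of vessels and deposition of matrix. The muscle also holds a circadian clock, in which BMAL1 and CLOCK drive genes such as Nr1d1 and Dbp and are held back by the PER, CRY and REV-ERB proteins, so that many transcripts differ with the hour of sampling.

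The ischemia + exercise and sham arrays were alike in their technical measures, and the ischemia + ES array had the highest 3′ to 5′ ratios. The median signal was 30.3 on the ischemia + exercise array and 29.0 on the sham array. The ratio of 3′ to 5′ actin signal, which grows as RNA degrades, was 4.34 on the ischemia + exercise array and 4.38 on the sham array, and for GAPDH it was 1.16 on both. For actin it was 5.94 on the ischemia + ES array and 3.81 on the ischemia array, and for GAPDH it was 1.26 with ES and 1.04 in ischemia. The part of RNA quality in the ES values was not tested. The 18 spiked-in control probe sets had a median log2 ratio of -0.01, with a range of -0.18 to 0.46. The tissue label was checked against genes that mark muscle fibres, and all were near the top of the scale on both arrays. Acta1, skeletal muscle actin, had a signal of 10831 with exercise and 11291 in sham. Ckm, muscle creatine kinase, had 10132 with exercise and 9954 in sham. Mb, myoglobin, had 10801 with exercise and 10832 in sham.

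Most genes had nearly the same signal on both arrays. The median log2 ratio over all 10092 genes was 0.01, the 5th percentile was -0.38 and the 95th percentile was 0.48, and 95.4% of genes lay within 1.5-fold. These figures include the 4.46% of genes at the floor on both arrays, whose ratio the flooring set to 0. Above the floor on both arrays were 9058 genes. Among the 26 higher genes the median log2 ratio was 1.15, and among the 19 lower genes it was -1.30. The folds ran from 2.004 to 5.95 for the higher genes and from 2.03 to 3.41 for the lower genes. Past 3-fold stood 4 higher genes and 2 lower genes. For 12 of the 45 genes the dimmer array was at the floor, so that the fold is a lower bound and is written as "at least".

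Dim genes passed the threshold more often than bright ones. The genes were split into 4 groups of 2523 by mean signal, from dimmest to brightest. Those past 2-fold numbered 16 (0.634%), 12 (0.476%), 11 (0.436%) and 6 (0.238%). The brighter of the 2 signals was under 4 times the floor, 120.5, for 18 of the 45 genes. Signals this low are noisy in this kind of array processing, and how many of the dim genes would repeat on another array was not tested. A subset of 14 genes passed 2-fold in the same direction under all 7 other ways of computing the ratio that were tried: Nr4a3, Lgals3, Cxcr4, Nr1d1, Dbp, Tnfrsf12a and Crym among the higher genes, and Hba-a3, Gadd45g, Npy, Rsad2, Slc25a25, Alas2 and Klf4 among the lower genes. Of these 14, only Nr4a3 and Cxcr4 had other probe sets, so for the rest the mean of all probe sets could not differ. Leaving out cross-hybridising probe sets lost none of the 45 genes.

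**Figure D1:**
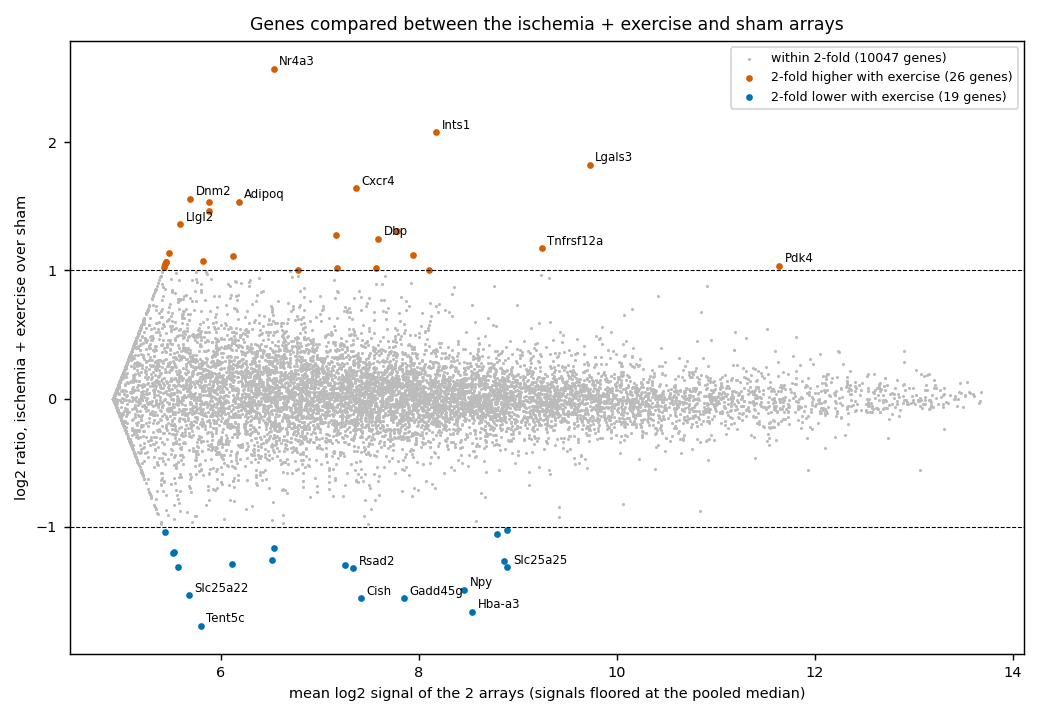
Each point is 1 of 10092 genes. The x axis is the mean log2 signal of the ischemia + exercise and sham arrays after flooring, and the y axis is the log2 ratio of the ischemia + exercise array over the sham array. Dashed lines mark 2-fold. The cloud lies around 0 with 26 genes above the upper line and 19 below the lower line, and the slanted edges at the left are genes at the floor on 1 array.

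The threshold cut through a continuous range of ratios. The higher genes just inside it were Cfd at 2.004-fold, Ube2ql1 at 2.01-fold and Angpt2 at 2.02-fold. Just outside it were Nucb2, at 1.9985-fold with 147 in exercise and 73.6 in sham, and Adamts9 and Vax2 at 1.98-fold each. Of the lower genes, Otud1 at 2.03-fold, Ret at 2.06-fold or more and Klf4 at 2.07-fold were just inside. Plin5 at 1.97-fold, with 128 in exercise and 252 in sham, was just outside, as were Dnase1l3, at least 1.97-fold lower, and Ubap1l, at least 1.95-fold lower.

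The other arrays placed the 45 genes in different ways. Exercise gave the highest signal of the 4 arrays for 20 of the 26 higher genes, and sham gave the lowest for 12 of them. Of the 19 lower genes, sham gave the highest signal for 14, and exercise gave the lowest for 8. The median log2 ratio of the 26 higher genes was 0.93 for exercise over ischemia, with a range of 0.07 to 2.39. The same genes had a median of 0.74 for ES over sham and of 0.21 for ischemia over sham. For the 19 lower genes the medians were -0.39 for exercise over ischemia, -1.21 for ES over sham and -1.06 for ischemia over sham. The genes were chosen by exercise over sham, so a high exercise or sham signal is part of the choice, and these counts and medians are a description that supports nothing further. Over all genes, 166 (1.64%) passed 2-fold between ischemia and sham, with 0.783% higher and 0.862% lower. Between ES and sham 488 (4.84%) passed it, with 3.78% higher and 1.06% lower.

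**Figure D2:**
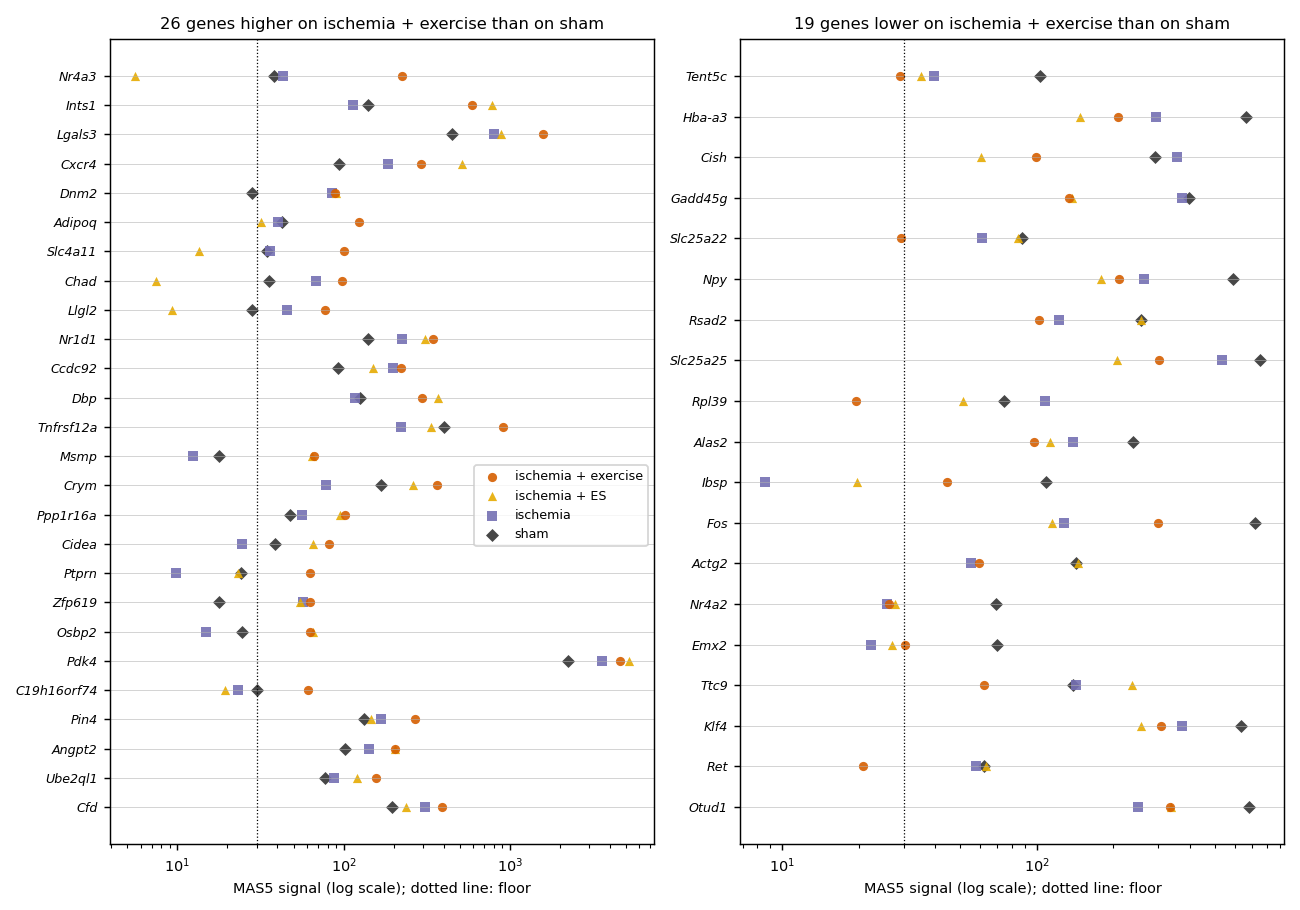
The MAS5 signal, on a log scale, of the 26 higher genes (left) and 19 lower genes (right) on the ischemia + exercise (circle), ischemia + ES (triangle), ischemia (square) and sham (diamond) arrays, with the largest ratio at the top. The dotted line is the floor of 30.1. Among the lower genes the sham diamonds stand at the right for 14 of 19, and among the higher genes the exercise circles are the rightmost points for 20 of 26.

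Transcription factors of the early response were found at both ends of the ratios. Nr4a3, an orphan nuclear receptor that is switched on by contraction and beta-adrenergic signals, had the highest ratio of all genes. Its signal was 226 with exercise, 5.55 with ES, 43.0 in ischemia and 37.9 in sham. Only the exercise array stood clearly above the floor. The fold over sham was 5.95 (log2 ratio 2.57). A second probe set of Nr4a3 gave 129 with exercise and 31.7 in sham, a log2 ratio of 2.03. A dimmer probe set of the same gene gave 31.8 with exercise and 28.4 in sham, a log2 ratio of 0.08.

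Fos, a subunit of the AP-1 transcription factor, went the other way. It had 298 with exercise, 115 with ES, 127 in ischemia and 719 in sham, a 2.41-fold lower signal with exercise (log2 ratio -1.27). The other probe set of Fos was at the floor with exercise and in sham. That alone brought the mean of its probe sets to a log2 ratio of -0.63, within 2-fold. The sham array was the highest of the 4, and exercise lay above both other ischemic arrays, with a log2 ratio of 1.23 over ischemia. Klf4, a zinc-finger factor of vessel and myeloid cells, had 307 with exercise, 258 with ES, 373 in ischemia and 636 in sham, 2.07-fold lower with exercise. Nr4a2, a relative of Nr4a3, had 26.3 with exercise, 27.7 with ES, 25.9 in ischemia and 69.2 in sham. It was at the floor on all arrays but sham, and so at least 2.30-fold lower with exercise. The mean of its probe sets was -0.60 on the log2 scale, because its other probe set was at the floor with exercise and in sham. The 2 NR4A genes past the threshold thus stood on opposite sides of sham, and the family's other member, Nr4a1, had 752 with exercise and 868 in sham (log2 ratio -0.21).

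Of 20 immediate early genes compared, 1 was past 2-fold higher (Nr4a3) and 3 were past 2-fold lower (Fos, Nr4a2 and Klf4). The median log2 ratio was -0.17, against 0.01 over all genes, with 6 genes above 0 and 14 below. Egr1, a zinc-finger factor induced by stretch and growth factors, had 427 with exercise and 242 in sham, a log2 ratio of 0.82. Klf2, a factor induced by blood flow in endothelium, had 508 with exercise and 913 in sham (-0.85), and Ier3 had 195 with exercise and 315 in sham (-0.70). Jun, Ier2 and Myc had log2 ratios of -0.07, -0.06 and 0.05. The early genes therefore did not stand on 1 side of sham as a group.

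**Figure D3:**
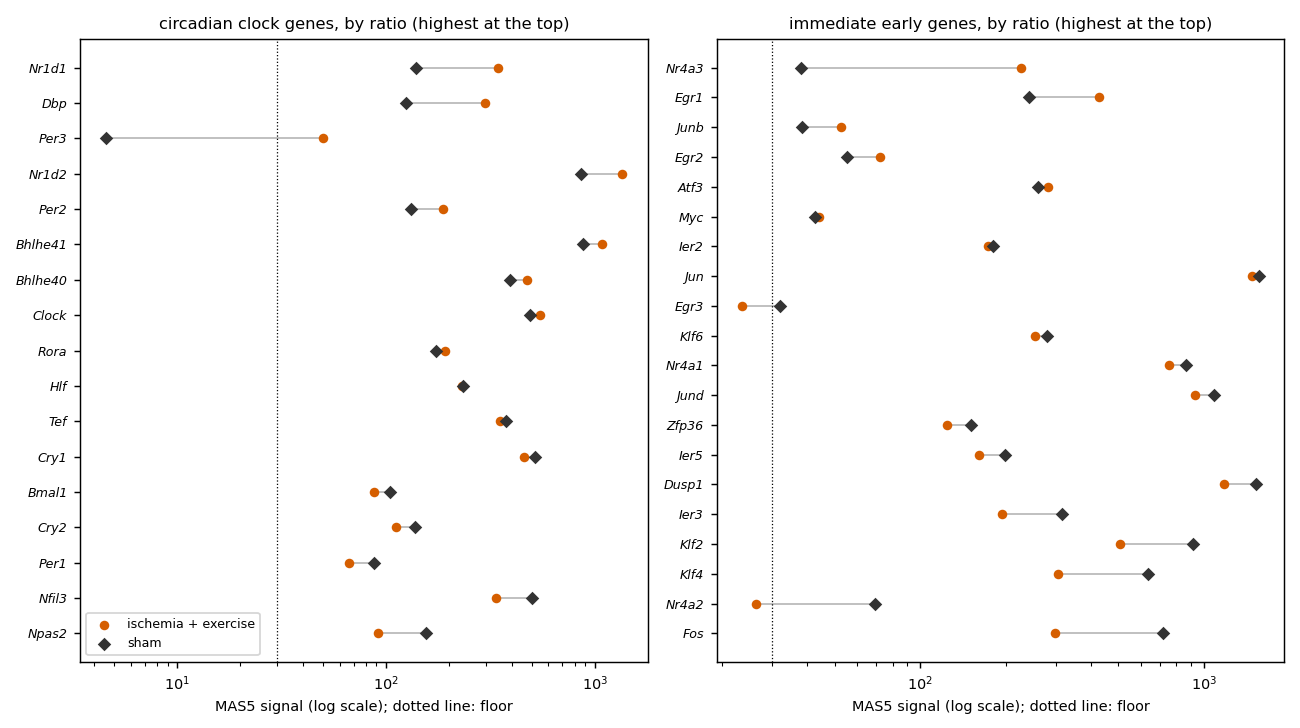
MAS5 signal on a log scale of 17 circadian clock genes (left) and 20 immediate early genes (right) on the ischemia + exercise (circle) and sham (diamond) arrays, joined by a line and ordered by log2 ratio with the highest at the top. The dotted line is the floor. Nr1d1 and Dbp among the clock genes and Nr4a3 among the early genes lie past 2-fold higher with exercise, and Fos, Nr4a2 and Klf4 lie past 2-fold lower.

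A pair of clock output genes was higher with exercise. Nr1d1, which encodes the heme-binding repressor REV-ERB alpha, had 346 with exercise, 308 with ES, 224 in ischemia and 139.9 in sham, a 2.47-fold difference between exercise and sham (log2 ratio 1.31). Sham was the lowest of the 4 arrays. Dbp, a PAR-domain transcription factor driven directly by the clock, had 297 with exercise, 368 with ES, 118 in ischemia and 125 in sham, 2.37-fold higher with exercise than in sham (1.25). For Dbp the ischemia array was close to sham and ES was the highest.

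Over the 17 clock genes compared, 2 were past 2-fold higher and none past 2-fold lower, the median log2 ratio was 0.14, and 9 genes were above 0 and 8 below. Nr1d2, which encodes REV-ERB beta, had 1353 with exercise and 861 in sham (0.65), and Per3 had 49.7 with exercise and a signal at the floor in sham, so that its log2 ratio is at least 0.72. Per2, a negative limb gene, had a log2 ratio of 0.50. On the other side, Npas2, a partner of BMAL1, had 91.6 with exercise and 156 in sham (-0.77). Nfil3, a repressor that opposes DBP, had a log2 ratio of -0.57, Per1 had -0.40 and Bmal1 had -0.25, while Clock had 0.17. The hour at which each muscle was taken is not given, and its part in these differences was not tested.

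Promoter sequences were looked up for the 45 genes in a RefSeq table of the 250 bases before each annotated start (assembly GRCr8), and 32 genes had an entry. Those of Nr1d1 and Dbp are shown because both genes are known clock targets and both were past 2-fold higher. The capitals mark matches to the E-box CACGTG, the site of BMAL1 and CLOCK, and to TTCNNNGAA, the site of STAT factors, searched on both strands. Both motifs read the same on either strand.
Nr1d1, chr10:84229455-84229704, minus strand: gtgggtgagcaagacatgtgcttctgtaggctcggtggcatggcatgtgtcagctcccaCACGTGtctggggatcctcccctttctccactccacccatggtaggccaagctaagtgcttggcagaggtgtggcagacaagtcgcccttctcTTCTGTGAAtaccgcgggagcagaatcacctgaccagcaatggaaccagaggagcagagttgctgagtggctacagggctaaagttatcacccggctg
Dbp, chr1:105312006-105312255, plus strand: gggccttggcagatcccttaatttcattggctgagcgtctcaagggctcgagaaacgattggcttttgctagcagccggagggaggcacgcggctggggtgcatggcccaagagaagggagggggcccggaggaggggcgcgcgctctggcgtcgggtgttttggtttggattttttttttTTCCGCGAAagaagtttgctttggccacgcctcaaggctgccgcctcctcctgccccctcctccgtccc
The Nr1d1 sequence holds the E-box at positions -191 to -186, counted back from the start, and a STAT site at -98 to -90. The sequence before another annotated start of Nr1d1 held none of the motifs searched. The Dbp sequence holds a STAT site at -69 to -61 and no E-box in this window. Of 33469 promoters of the same length, 5.59% hold the E-box and 7.67% the STAT site. Among the 32 genes with an entry, 3 had an E-box (Nr1d1, Gadd45g and Osbp2) and 6 had a STAT site (Cish, Dbp, Hba-a3, Klf4, Nr1d1 and Tnfrsf12a). The cAMP response element TGACGTCA, in 1.59% of all promoters, was present in 1 of the 32, Slc25a25, and the nuclear receptor site AGGTCA, in 14.1% of all promoters, was present in 2, Ibsp and Rpl39. A gene was counted if any of its annotated starts had the motif, whereas the percentages count each promoter apart, so the 2 are not alike. A match is a run of letters and says nothing about binding in this muscle.

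Cish and Gadd45g were past 2-fold lower with exercise. Cish encodes a SOCS-family inhibitor that STAT5 induces after growth hormone, prolactin or cytokines and that damps the same receptors. Its signal was 99.2 with exercise, 60.5 with ES, 355 in ischemia and 292 in sham, 2.94-fold lower with exercise than in sham (log2 ratio -1.56). The other probe set of Cish was at the floor with exercise and in sham. That alone brought the mean of its probe sets to a log2 ratio of -0.78, within 2-fold. The arrays fell into a low pair, exercise and ES, and a high pair, ischemia and sham. The promoter of Cish is shown because that of mouse is known for repeated STAT sites, which are in capitals.
Cish, chr8:116850719-116850968, plus strand: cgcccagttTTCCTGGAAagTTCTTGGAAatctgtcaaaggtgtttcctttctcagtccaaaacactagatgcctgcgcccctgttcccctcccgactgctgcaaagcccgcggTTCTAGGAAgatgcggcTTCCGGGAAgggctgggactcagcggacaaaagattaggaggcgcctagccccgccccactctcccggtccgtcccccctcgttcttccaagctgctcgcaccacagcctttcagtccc
It holds 4 matches to TTCNNNGAA, at -241 to -233, -230 to -222, -136 to -128 and -119 to -111 from the start. Of all 33469 promoters, 2 (0.00598%) hold 4 or more such matches.

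Gadd45g, a stress-induced gene of growth arrest, showed the same division of arrays as Cish. It had 134 with exercise, 137 with ES, 371 in ischemia and 395 in sham, and was 2.94-fold lower with exercise than in sham (log2 ratio -1.56). Its relative Gadd45b had 163 with exercise and 121 in sham, a log2 ratio of 0.43. Among 19 genes of growth signalling and SOCS feedback, Cish and Gadd45g were the 2 past 2-fold, both lower, and the median log2 ratio was -0.07. Stat5a and Stat5b had log2 ratios of -0.07 and 0.29, Irs2 had -0.62, and Igf1 had -0.42. Socs2, another target of STAT5, was at the floor with exercise and had 34.9 in sham.

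Lgals3, Tnfrsf12a, Cxcr4 and Angpt2 were past 2-fold higher with exercise. Lgals3 encodes galectin-3, a sugar-binding protein abundant in macrophages and also made by damaged fibres. It had 1590.1 with exercise, 881 with ES, 804 in ischemia and 449 in sham, 3.54-fold higher with exercise than in sham (log2 ratio 1.82). All 3 ischemic arrays were above sham, and exercise was the highest. Lgals3 was the single gene past 2-fold among 22 macrophage markers compared. The summed signal of all 22 markers, Lgals3 included, was 5897 with exercise, 10242 with ES, 9024 in ischemia and 4849 in sham. Without Lgals3, the other 21 markers summed to 4307 with exercise, 9361 with ES, 8219 in ischemia and 4400 in sham. The part of macrophages in the Lgals3 values was not tested. The median log2 ratio of all 22 was -0.07, with 7 above 0 and 14 below. Cd68, a defining marker, was at the floor with exercise and had 32.4 in sham. In bulk tissue fewer cells of a type and less RNA per cell cannot be told apart.

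Tnfrsf12a encodes Fn14, the receptor for the cytokine TWEAK, which injured and denervated muscle is known to raise. It had 907 with exercise, 334 with ES, 222 in ischemia and 403 in sham, 2.25-fold higher with exercise than in sham (log2 ratio 1.17). Exercise stood alone above the other 3 arrays, and ischemia was the lowest, so that the log2 ratio of exercise over ischemia was 2.03. Cxcr4, the receptor for the chemokine CXCL12 on endothelium, leukocytes and muscle precursors, had 290.5 with exercise, 512 with ES, 185 in ischemia and 93.2 in sham. It was 3.12-fold higher with exercise than in sham (1.64), and all 3 ischemic arrays were above sham. The other probe sets of Cxcr4 gave log2 ratios of 1.41 and 1.55, so this gene was past 2-fold on all of its probe sets above the floor. Angpt2, an angiopoietin that loosens vessels for sprouting, had 205 with exercise, 204 with ES, 143 in ischemia and 101 in sham, 2.02-fold higher with exercise than in sham (1.02).

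Other vessel genes were close to sham. Cxcr4 and Angpt2 were the 2 genes past 2-fold among 21 genes of angiogenesis and hypoxia, whose median log2 ratio was 0.04. Vegfa, the main vessel growth factor of muscle, had 764 with exercise, 843 with ES, 557 in ischemia and 721 in sham (0.08 for exercise over sham). A dimmer probe set of Vegfa lay on the other side of sham, with 107 with exercise and 120 in sham (-0.17). Hif1a had a log2 ratio of 0.29 and Nos3, endothelial nitric oxide synthase, -0.13. None of 14 endothelial markers passed 2-fold, and their median was 0.11. Cldn5, a tight junction protein of endothelium, had 297 with exercise and 184 in sham (0.69), and Kdr, the main VEGF receptor, had 407 with exercise and 535 in sham (-0.40).

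Genes of fuel use stood on both sides. Pdk4 was the brightest of the 45 genes, with 4569.9 with exercise, 5232 with ES, 3570.4 in ischemia and 2232 in sham. It was 2.05-fold higher with exercise than in sham (log2 ratio 1.03), and all 3 ischemic arrays were above sham. A dimmer probe set of Pdk4 gave 218 with exercise and 119 in sham, which is 1.83-fold (0.87), and the mean of its probe sets was 0.95. Pdk4 was the single gene past 2-fold among 25 genes of fatty acid uptake and oxidation. Their median was -0.08, with 9 genes above 0 and 16 below. Angptl4, an inhibitor of lipoprotein lipase that fatty acids induce, had 61.5 with exercise and 36.5 in sham (0.75). Ppargc1a, the coactivator of mitochondrial gene expression that contraction raises, had 467 with exercise, 334 with ES, 249.97 in ischemia and 308 in sham, a log2 ratio of 0.60 over sham, and Ppargc1b had -0.68. Among 24 citrate cycle and respiratory chain genes, none passed 2-fold, 3 were above 0 and 21 below, and the median was -0.08.

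A pair of mitochondrial carriers was lower with exercise. Slc25a25, a calcium-sensitive carrier of ATP-Mg and phosphate, had 302 with exercise, 206 with ES, 533 in ischemia and 751 in sham, 2.49-fold lower with exercise than in sham (log2 ratio -1.31). Sham was the highest array. Slc25a22, a glutamate carrier, had 29.2 with exercise, 84.5 with ES, 61.2 in ischemia and 87.2 in sham. Exercise put it at the floor and the other 3 arrays did not, so the gene was at least 2.90-fold lower. Crym, mu-crystallin, which binds thyroid hormone in the cytosol, had 363 with exercise, 261 with ES, 78.4 in ischemia and 167 in sham, 2.17-fold higher with exercise than in sham (1.12). Crym in ischemia was below sham, and the log2 ratio of exercise over ischemia was 2.21.

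Adipoq, Cidea and Cfd, which are known from fat cells, were all past 2-fold higher. Adipoq encodes the hormone adiponectin and had 124 with exercise, 31.8 with ES, 40.3 in ischemia and 42.7 in sham, 2.90-fold higher with exercise than in sham (log2 ratio 1.53). The other 3 arrays lay near the floor. Cidea, a lipid droplet protein, had 81.8 with exercise, 65.8 with ES, a signal at the floor in ischemia and 38.9 in sham (2.10-fold, 1.07). Cfd, which encodes the complement protease adipsin, had 389 with exercise, 236 with ES, 309 in ischemia and 194 in sham (2.004-fold, 1.003). Of 15 adipocyte markers listed, 11 were compared, and 3 were past 2-fold higher and none past 2-fold lower. Their median log2 ratio was 0.11, with 6 above 0 and 4 below. The summed signal of all 11 markers was 2427 with exercise, 2079.7 with ES, 2205 in ischemia and 2333 in sham. That sum includes the 3 genes chosen by their ratio. The 8 markers within 2-fold summed to 1833 with exercise, 1746 with ES, 1831 in ischemia and 2057 in sham. Plin4 alone made up most of this sum, with 1262 with exercise, 1020 with ES, 1274 in ischemia and 1373 in sham. The sum therefore says little about the other markers. Plin1, a defining marker, had 46.1 with exercise and was at the floor in sham, at least 0.61 on the log2 scale. Pparg was at the floor on both arrays, and Plin5 had a log2 ratio of -0.98. The part that fat cells in the tissue pieces had in these 3 genes was not tested.

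Hba-a3 and Alas2, genes of red blood cells, were past 2-fold lower with exercise. Hba-a3, an alpha-globin gene, had 209 with exercise, 148 with ES, 294 in ischemia and 662 in sham, 3.17-fold lower with exercise than in sham (log2 ratio -1.66). Sham was the highest of the 4 arrays. Globin genes are near-identical copies, and the signal of Hba-a3 may include that of other alpha-globins. Alas2, the first enzyme of heme synthesis in erythroid cells, had 97.4 with exercise, 112 with ES, 139 in ischemia and 239.5 in sham, 2.46-fold lower with exercise (-1.30). Among 4 erythroid markers compared, Alas2 was the 1 past 2-fold, and the median was -0.24. Under the other settings tried this median ran from -0.89 to 0.07. Hbb, beta-globin, had 7044 with exercise, 6766 with ES, 6999 in ischemia and 10334 in sham (-0.55 for exercise over sham), while Ahsp and Slc4a1 were near the floor, with log2 ratios of 0.07 and at least 0.31. The summed signal of the 4 markers was 7214 with exercise and 10633 in sham, and nearly all of it was Hbb. The part of blood left in the tissue was not tested.

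Npy, the peptide neuropeptide Y of sympathetic nerves and, in rat, of platelets, showed a like order of arrays. It had 209.6 with exercise, 178 with ES, 264 in ischemia and 588 in sham, 2.81-fold lower with exercise than in sham (log2 ratio -1.49). Tent5c, a non-canonical poly(A) polymerase, had 29.0 with exercise, 35.1 with ES, 39.6 in ischemia and 103 in sham. It was at least 3.41-fold lower with exercise, the lowest ratio of all genes. In Hba-a3, Npy and Tent5c alike, sham alone was high.

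The remaining higher genes were mostly dim or unequal between probe sets. Ints1, a subunit of the Integrator complex that ends transcription of small nuclear RNAs, had 593 with exercise, 784 with ES, 114 in ischemia and 141 in sham, 4.22-fold higher with exercise than in sham (log2 ratio 2.08). Its other probe sets above the floor gave 0.36 and 0.31, and the mean over all of its probe sets was 0.55, within 2-fold. Dnm2, the membrane-cutting GTPase dynamin 2, had 88.7 with exercise, 90.3 with ES, 84.7 in ischemia and a signal at the floor in sham, at least 2.95-fold higher. Exercise hardly differed from ischemia for this gene, with a log2 ratio of 0.07. Slc4a11, a transporter of the bicarbonate carrier family, had 100.4 with exercise, 13.5 with ES, 36.3 in ischemia and 34.7 in sham, 2.89-fold higher than sham (1.53). Llgl2, a cell polarity gene, had 77.3 with exercise, 45.4 in ischemia and signals at the floor with ES and in sham, at least 2.57-fold higher than sham. ES lay below the floor for both Slc4a11 and Llgl2.

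Chad, chondroadherin, a matrix protein of cartilage and tendon, had 98.0 with exercise, 7.38 with ES, 68.1 in ischemia and 35.5 in sham. It was 2.76-fold higher with exercise than in sham (log2 ratio 1.46). All 7 tendon markers compared were above 0, with a median of 0.58, the highest of 34 gene lists. Their summed signal was 2561 with exercise, 1421 with ES, 2456 in ischemia and 1652 in sham. Scx, a transcription factor of tendon cells, had 536 with exercise and 363 in sham (0.56). Tnmd, tenomodulin, had 194 with exercise and 138 in sham (0.50), and Fmod, fibromodulin, had 524 with exercise and 351 in sham (0.58). Egr1 is also among these 7. The part of tendon in the tissue pieces was not tested.

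Of the other higher genes, Ccdc92 was 2.42-fold higher with exercise than in sham, but another of its probe sets gave a log2 ratio of -0.03. Ppp1r16a, a regulatory subunit of protein phosphatase 1, was 2.16-fold higher, Pin4, a prolyl isomerase, 2.02-fold, and Ube2ql1, a ubiquitin-conjugating enzyme, 2.01-fold, with 0.34 on another probe set of Ube2ql1. Msmp, Ptprn, Zfp619, Osbp2 and C19h16orf74 were at the floor in sham and had exercise signals of 61.3 to 66.1, which made them at least 2.03 to 2.19-fold higher. Ptprn is a protein of dense-core vesicles and Osbp2 an oxysterol-binding protein. With the mean of all probe sets Ccdc92 had 0.62, Ppp1r16a 0.56, Ube2ql1 0.67 and Osbp2 0.53, all within 2-fold. For Ppp1r16a and Osbp2 the other probe set was at the floor with exercise and in sham, so their means hold no further measurement. With signals this close to the floor, Msmp, Ptprn, Zfp619, Osbp2 and C19h16orf74 rest on 1 dim measurement each.

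Among the remaining lower genes, Rsad2, which encodes the antiviral protein viperin, had 102 with exercise, 256 with ES, 123 in ischemia and 256 in sham, 2.50-fold lower with exercise than in sham (log2 ratio -1.32). It was the single gene past 2-fold among 17 interferon response genes, and Irf7, a regulator of that response, had 0.61. Otud1, a deubiquitinase, had 334 with exercise, 337 with ES, 251 in ischemia and 678 in sham, 2.03-fold lower. Actg2, the gamma actin of smooth muscle, had 59.3 with exercise, 145 with ES, 55.01 in ischemia and 142 in sham, 2.40-fold lower with exercise (-1.26). Exercise and ischemia were low and ES and sham were high for both Rsad2 and Actg2. None of 15 pericyte and smooth muscle markers passed 2-fold. Their median was 0.11, and Myh11, smooth muscle myosin, had -0.95.

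Rpl39, a ribosomal protein gene, was at the floor with exercise and had 51.4 with ES, 108 in ischemia and 74.6 in sham, at least 2.48-fold lower than sham. Ribosomal protein genes have many near-identical pseudogenes, so what this probe set measured is uncertain. Ibsp, bone sialoprotein, was 2.45-fold lower with exercise, Emx2, a homeobox factor, 2.29-fold, and Ttc9 2.24-fold, with 0.02 on another probe set of Ttc9. Ret, the receptor of GDNF-family ligands, was at the floor with exercise and had 63.0 with ES, 57.9 in ischemia and 62.1 in sham, at least 2.06-fold lower than sham. With the mean of all probe sets the log2 ratio was -0.57 for Ttc9 and -0.35 for Ret, both within 2-fold. The other probe sets of Ret were at the floor with exercise and in sham, so its mean holds no further measurement.

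The gene groups that describe fibre type, damage and repair were close to sham on the exercise array. Over 34 lists with 483 genes compared, 18 genes (3.73%) were past 2-fold, against 0.446% over all genes, but the lists were drawn up with earlier results of these data known. The other 27 of the 45 genes were in no list. No gene was past 2-fold in 23 lists, and 32 list medians lay within 0.25 of 0 on the log2 scale. The 10 slow-fibre contractile genes were all above 0, with a median of 0.21 and none past 2-fold. Their summed signal was 76603 with exercise, 23214 with ES, 11603 in ischemia and 66333 in sham. Tnnt1, slow troponin T, had 8659 with exercise, 1278 with ES, 676 in ischemia and 6702 in sham (0.37 for exercise over sham). Myh7, slow myosin, had 12422 with exercise, 4827 with ES, 2970.4 in ischemia and 11339.8 in sham (0.13). Exercise and sham differed by at most 0.41 in these 10 genes, on the log2 scale, and the summed signals of both were far above those of the other arrays. Myh4, the fastest myosin, had a log2 ratio of 0.05, and the median of 15 fast-fibre genes was 0.02. Whether the pieces of muscle on the 4 arrays held the same share of slow fibres before treatment was not tested.

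Fixed genes of stretch, matrix and macrophage activity were nearer to sham than to ischemia on the exercise array. Ankrd1, a stress-induced titin-binding protein, had 75.7 with exercise, 1298 with ES, 826 in ischemia and 77.7 in sham (log2 ratio of exercise over sham -0.04). Col1a1, a chain of type I collagen, had 1000.4 with exercise, 2385 with ES, 3561 in ischemia and 1137 in sham (-0.19). Gpnmb, a glycoprotein of activated macrophages, had 159.8 with exercise, 1158 with ES, 787 in ischemia and 105 in sham (0.61). Spp1, osteopontin, was at the floor with exercise and had 259 with ES, 128 in ischemia and 58.6 in sham, at least 0.96 lower on the log2 scale with exercise. None of 29 matrix genes was past 2-fold. Their median was 0.00, with 15 above 0 and 14 below, and Thbs2, a matrix protein that restrains vessel growth, had 0.93.

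A few genes of muscle itself came near 2-fold without reaching it. Sln, sarcolipin, which uncouples the calcium pump, had 802 with exercise, 665 with ES, 68.2 in ischemia and 1420.0 in sham (log2 ratio of exercise over sham -0.82). Pln, phospholamban, a relative of sarcolipin in slow fibres, had 0.88, but another of its probe sets gave 0.12. Myod1, a regulator of muscle precursors and fast fibres, had 495 with exercise and 938 in sham (-0.92), and Chrna1, the acetylcholine receptor subunit of muscle, had 0.84. Fhl2, a LIM protein of the Z-disc, had 0.75, with 0.45 on another probe set.

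The rest of the lists gave smaller ratios. Acaca, the enzyme that commits carbon to fatty acid synthesis, had 262 with exercise, 199.9 with ES, 149 in ischemia and 153 in sham (log2 ratio of exercise over sham 0.77). Apoe, a lipid carrier that macrophages secrete, had 679 with exercise and 462 in sham (0.55), while the median of the 12 genes of cholesterol and lipid synthesis was -0.10. Hspa2, a member of the HSP70 family, had 231 with exercise and 138 in sham (0.75), and the median of 13 chaperone genes was -0.14. Csrp3, the muscle LIM protein, had 3525 with exercise, 2360.4 with ES, 469.9 in ischemia and 2424 in sham (0.54). Foxo1, a transcription factor that drives atrophy genes, had 74.2 with exercise and 51.6 in sham (0.52), and the median of 15 atrophy genes was 0.19. The myelin genes Prx and Mbp were on the other side of sham, with log2 ratios of -0.72 and -0.63, as was Ccnd1, cyclin D1, with -0.65. None of these genes reached 2-fold. The neutrophil list rests on S100a8 and S100a9, with log2 ratios of -0.45 and -0.56, and S100a8 was at the floor with exercise.

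**Figure D4:**
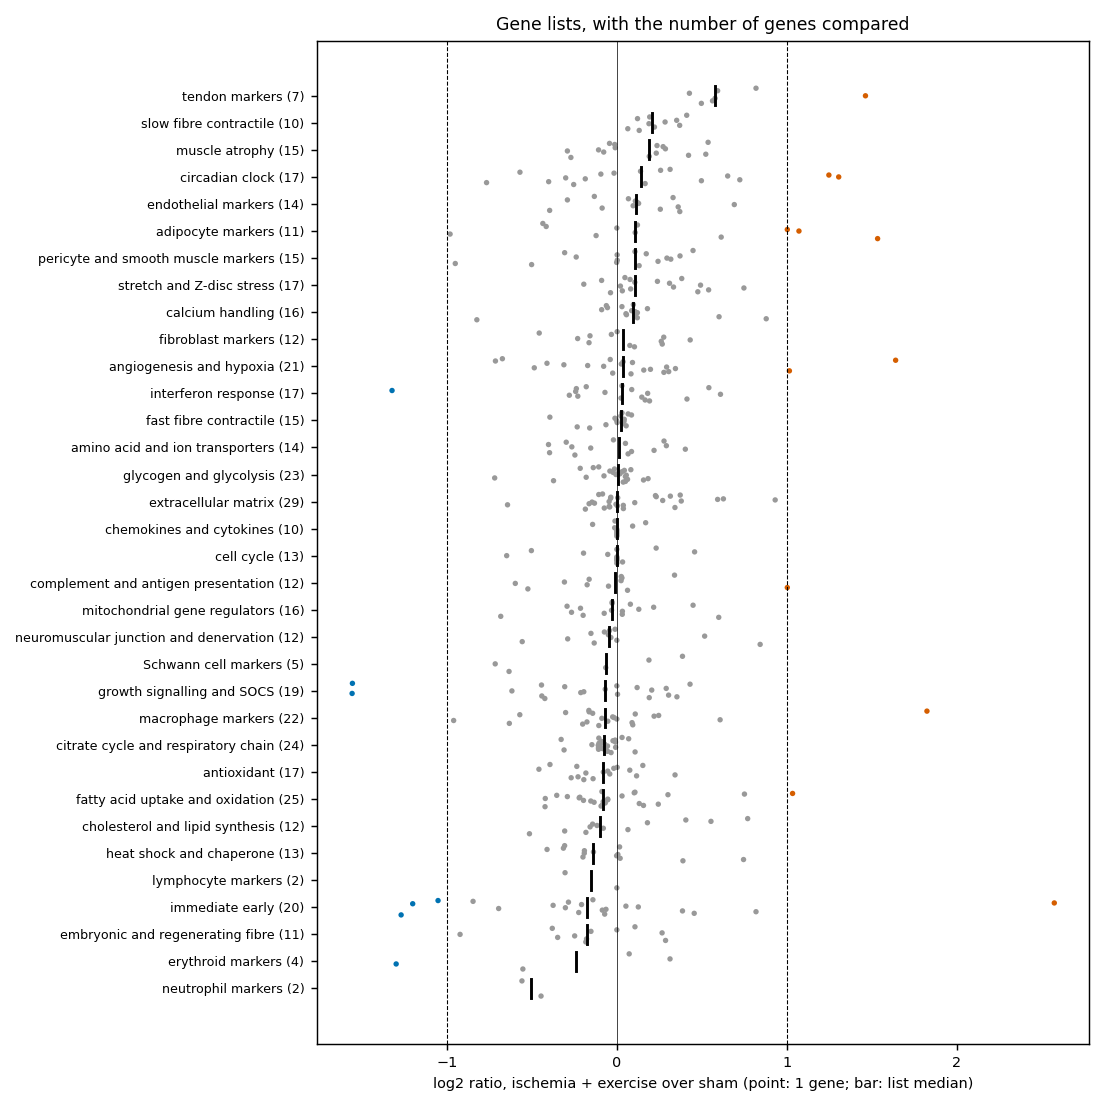
Log2 ratio of the ischemia + exercise array over the sham array for each gene (point) of 34 gene lists, with the number of genes compared in brackets and the list median as a bar; dashed lines mark 2-fold. Tendon markers have the highest median, 0.58, neutrophil markers, with 2 genes, the lowest, -0.50, and the 18 genes past 2-fold are coloured.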

How the data were processed

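Total RNA of rat skeletal muscle was labelled with biotin and hybridised to 4 single-colour 3′ expression arrays, 1 per group, per the labels' protocols. The values deposited by the authors are linear intensities of probe sets, made with MAS5 per the submitters' processing notes, version not given. Each array's deposited values had a 2% trimmed mean of 150.1 and so had been scaled alike. That scaling hides any difference in total mRNA. The genome build of the processing is not given in the sources used here. Neither detection calls nor scanner output entered.

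After scaling to equal 2% trimmed means, intensities were floored at the pooled 50th percentile (30.1) and log2 was taken. The platform annotation gave 1 gene symbol for 20832 of 31099 probe sets, several for 436 and none for 9831, and only the first kind named genes. A gene was its probe set of highest mean signal. A gene was compared if any of the 4 arrays had it above the floor, and counted at 2-fold or more. A gene at the floor on 1 array has a bound. Precision is limited by the number of arrays, and no p-value was computed. The members and the gene lists were chosen with earlier results of these data known. By the rule for named genes, all genes past 2-fold are accounted for, with signals on all arrays for the 10 highest and the 10 lowest ratios. The rule also took the 3 genes on each side of the threshold, 14 fixed genes, and up to 2 genes per list with the largest absolute ratio. Genes named outside it (Ier2, Ier3, Jun, Klf2, Myc, Nr4a1, the clock genes within 2-fold, Gadd45b, Igf1, Irs2, Socs2, Stat5a, Stat5b, Cd68, Plin1, Plin4, Pparg, Ahsp, Slc4a1, Fmod, Scx, Tnmd, Acta1, Ckm and Mb) were chosen after their values were seen, to show their groups.

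Alternatives were quantile and cyclic loess normalization, floors at other percentiles, no floor with 16 added before log2, the mean of all probe sets, leaving out cross-hybridising probe sets, and other thresholds. A further 2 were chosen after seeing the data. Python 3.11.15, pandas 2.3.3, numpy 2.4.6, R 4.3.3 and limma 3.58.1 were used. The computation was tested on simulated data with changes planted only in bright genes, so that test does not cover dim genes.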

Additional observations from a re-analysis of the deposited data

How the results depend on the processing

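With 1 array per group, no value has a replicate check. No paired analysis was possible because each group has 1 array. The counts of 26 higher and 19 lower genes depended on the floor and the threshold. They were 173 and 148 with the floor at the 30th percentile, 13 and 10 at the 70th percentile, and 61 and 44 with no floor and 16 added to the signal. At 1.5-fold they were 296 and 172, and at 3-fold 4 and 2. Where the brighter signal had to be at least 4 times the floor, a setting chosen after seeing the data, 15 and 12 were left. Quantile normalization gave 22 higher and 24 lower genes, moving the higher share of the counted genes to 47.8%, beside 57.8% as reported and 52.0% with loess. The other settings gave counts within 1.5 times those reported.

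Of the 45 genes, 40 stayed past 2-fold in the same direction under both normalizations. With the mean of all probe sets 34 stayed, but a gene with no other probe set could not change there. Among the genes with other probe sets, only Nr4a3 and Cxcr4 stayed past 2-fold, and 11 did not. Ints1, Ccdc92, Pdk4, Fos and Cish were among the 11 that did not. Ints1, Ccdc92 and Pdk4 had other probe sets above the floor that stayed within 2-fold. Fos and Cish had no other probe set above the floor with exercise or in sham, so their means were lowered by the floor alone. None of 301 recomputed values of the 45 genes changed sign, and 38 no longer reached 2-fold. Under quantile normalization the medians of the interferon and glycolysis lists changed sign, both being within 0.05 of 0. Of 237 recomputed list medians, 220 moved by under 0.1 on the log2 scale.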

Other observations

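Among 3877 probe sets above the floor with no gene symbol or with several, 15 were past 2-fold higher with exercise than in sham and 10 were past 2-fold lower. Each probe set was counted here, whereas a gene was counted by 1 probe set, so these counts and those of the genes are not alike. The lowest was 1397905_at, with 63.5 with exercise, 61.5 with ES, 64.6 in ischemia and 234 in sham, a log2 ratio of exercise over sham of -1.88. The next, 1372293_at, had -1.43. The highest were 1396472_at, with 150 with exercise and 50.8 in sham (1.56), and 1376966_at, with 973 with exercise and 355 in sham (1.45).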
